A study of Mus musculus with 57 samples.

Results

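Single wild-type mouse embryos were compared at 2 stages on either side of implantation. The comparison rests on 8 RNA-seq libraries of the 57 in the series, each made from a whole embryo: 4 blastocysts at embryonic day E3.5 and 4 embryos at E6.5. All 8 carry the genotype label Taf13 WT and no treatment, and they were chosen by these labels alone, as the WT columns 1 to 4 of the Taf13 line at each stage. The series itself profiles embryos from mouse lines in which Taf5, Taf12 or Taf13, genes for subunits of the general transcription factor TFIID, were knocked out. Of its other embryos, 13 heterozygous (HET) embryos of the Taf13 line, 4 at E3.5 and 9 at E6.5, gave a second stage comparison. A further 9 WT embryos of the Taf12 line, 5 at E3.5 and 4 outgrowths (OG), gave a comparison with development in a dish: the outgrowths were E3.5 blastocysts kept singly for 72 h in DMEM with 10% fetal bovine serum. The labels give no strain, and they do not say whether the embryos came from separate litters. The p-values therefore measure only how far these single embryos spread.

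At E3.5 the mouse blastocyst is a hollow ball with an outer pumping epithelium, the trophectoderm, and an inner cell mass that is separating into naive pluripotent epiblast and primitive endoderm. After implantation the embryo becomes the egg cylinder: a cup of primed epiblast joined to the extraembryonic ectoderm and wrapped in visceral endoderm, an absorptive layer that feeds the embryo before the placenta forms. Around E6.5 the primitive streak starts to form at the posterior side of the epiblast under the control of Nodal, BMP, WNT and FGF signals, and the anterior visceral endoderm secretes their antagonists. The uterine stroma around the embryo has by then turned into decidua.

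Levels are FPKM (fragments scaled by transcript length and library size) rescaled together over the 8 libraries by median-of-ratios, and each set of values below is in the order of libraries 1 to 4. The 4 blastocyst libraries held 9.305 to 10.3 megareads, recovered from the FPKM steps, and the 4 E6.5 libraries 19.3 to 20.6 megareads. The principal component that carried 67.8% of the variance separated the stages. Correlations of log2(FPKM + 1) with the other libraries of the same stage were 0.906 to 0.923 among blastocysts and 0.934 to 0.985 among E6.5 embryos. Stage cannot be told apart from depth and the authors' normalization, which was done separately for each line and stage.

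E6.5 embryo 3 stood apart from the rest of its stage and is followed through the results. It was the highest of its stage by at least 1 on the log2 scale in 374 tested genes and the lowest in 751, against 37 to 50 and 47 to 100 genes in the other E6.5 libraries. It carried the highest levels of transcripts made by decidua and maternal blood and the lowest levels of early mesoderm genes, as the plot of single embryos shows. Prl8a2, a decidual prolactin, was at 0 in every blastocyst and at 121, 361, 4597 and 124 FPKM at E6.5. Prl3c1, a prolactin of the decidua, was at 3.9, 14.9, 99.9 and 5.46 FPKM and Hoxa10, a homeobox gene of uterine stroma, at 9.92, 41, 239.6 and 9.5 FPKM. Esr1, the oestrogen receptor, was at 9.33, 0.375, 99.8 and 6.95 FPKM, and Gzmb, the granzyme of uterine natural killer cells, at 0, 0, 90.1 and 6.42 FPKM. Adult beta-globin Hbb-bs, a marker of maternal blood at this stage, was at 15.4, 53.9, 136 and 3.44 FPKM. Of these 6 genes only Hoxa10 had any signal at E3.5, 0.762 FPKM in blastocyst 3. Summed over the whole list of 21 maternal immune genes, the level was 14.8, 16.3, 192.7 and 27.9 FPKM at E6.5 and 3.85 to 28.2 FPKM at E3.5; the pan-leukocyte gene Ptprc was at 0, 0, 0.382 and 0 FPKM at E6.5. The 9 genes found in the table from a list of globin and red cell genes summed to 31.7, 115.1, 263.5 and 4.65 FPKM at E6.5 and to at most 0.403 FPKM at E3.5. The list of 24 decidual genes summed to 4200, 5020, 9977 and 4619 FPKM at E6.5 and to 4822 to 7926 FPKM at E3.5, where Gja1, a gap junction gene that the embryo expresses itself, made up most of it. The part of these transcripts in other results was not tested. Where leaving out embryo 3 moved a count of list members given below, the second count follows it.

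**Figure D1:**
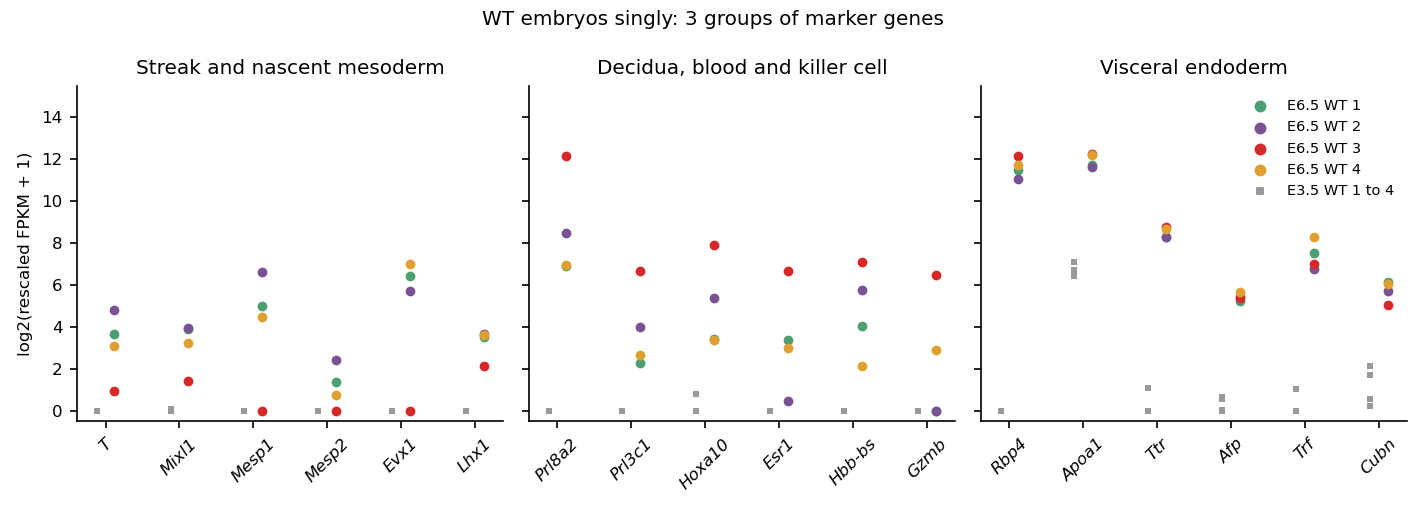
Level of 18 marker genes in each WT embryo on the log2(rescaled FPKM + 1) scale, with E6.5 embryos 1 to 4 in separate colours and the 4 blastocysts as grey squares. Embryo 3 is lowest for the 6 streak and mesoderm genes and highest for the 6 decidual and blood genes, while the visceral endoderm genes are far above the blastocysts in all 4 E6.5 embryos.

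The 2 stages differed in a large share of the transcriptome. Of 11875 genes with at least 1 FPKM in at least 4 of the 8 libraries, 5227 (44.02%) were called by limma with adjusted p under 0.05: 3171 (26.7%) were higher at E6.5 and 2056 (17.3%) lower. With a fold change of at least 2 in addition, 2588 genes (21.8%) were higher and 1688 (14.2%) lower. In 5210 genes (43.9%) the 8 libraries did not overlap between the stages. The median log2 fold change of all tested genes was 0.23, and list medians below are to be read against that value, and list counts against the 26.7% and 17.3%. The balance of higher and lower genes depended on the scaling: with libraries set to the same upper quartile the median of all genes moved to 1.1, and 7163 genes were higher and 964 lower. Among the decreases named below, those of Eomes, Fgfr1, Plat, Id2, Fgf4, Igf2r, Slc38a4, Hk2, mt-Rnr2 and Cdh1 lost their call under that scaling. Those of Eomes (-1.27), Id2 (-0.55) and Fgf4 (-1.44) were also lost with the WT blastocysts of the Taf12 line as the start. At E3.5, 668 tested genes were at 0 in all 4 libraries and all were called higher; 75 were at 0 in all 4 E6.5 libraries and all were called lower. The filter admits such a gene only where all 4 libraries of the other stage reach 1 FPKM, so these counts follow from it. The same limit holds in the list counts and medians below for members at 0 in every library of a stage. Since each library is a whole embryo, fewer cells of a type and less RNA per cell cannot be told apart. A fold change on the log2(FPKM + 1) scale understates the change of low genes.

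Predicted genes, clones and pseudogenes aside, the 12 genes with the largest increase were led by Cyp26a1, which encodes the main enzyme that clears retinoic acid. It had no reads in any blastocyst and stood at 4542, 4827, 6378 and 4402 FPKM at E6.5, at least 1265-fold higher when a floor of 3 reads per library is put in place of 0 (log2 fold change 12.28 ± 0.18 SE, adjusted p = 1.75e-09). Rbp4, the retinol carrier secreted by visceral endoderm, was likewise at 0 in every blastocyst and at 2875, 2137, 4506 and 3455 FPKM at E6.5, at least 1605-fold higher (log2 fold change 11.61 ± 0.24 SE, adjusted p = 2.05e-08). Both therefore went from no detected read to a high level in every E6.5 embryo. Podxl, a surface sialomucin of polarised epithelium and pluripotent cells, rose from 0 to 3385, 2183, 1093 and 3942 FPKM, at least 579.9-fold (log2 fold change 11.21 ± 0.38 SE, adjusted p = 1.49e-07). Fgf8, a growth factor of the epiblast and streak, rose from 0 to 576, 671, 429 and 682 FPKM, at least 226-fold (log2 fold change 9.18 ± 0.22 SE, adjusted p = 3.38e-08). The Hedgehog signal transducer Smo rose from 0 to 773, 624, 419 and 1040 FPKM, at least 58.9-fold (log2 fold change 9.40 ± 0.29 SE, adjusted p = 1.05e-07).

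The other risers were transporters, secreted proteins and metabolic or cell cycle genes. Ldha, lactate dehydrogenase A, was at 0.0757, 3.52, 7.71 and 1.22 FPKM in the blastocysts and at 2498, 3628, 2717 and 2634 FPKM at E6.5, 916-fold higher (log2 fold change 9.83 ± 0.57 SE, adjusted p = 3.36e-06). Apom, an apolipoprotein, was at 0, 3, 0 and 2 FPKM and then at 1277, 1321, 2084 and 1423 FPKM (log2 fold change 9.65 ± 0.48 SE, adjusted p = 1.47e-06). Slc13a4, a sulfate transporter, had 2 reads in all in the blastocysts and 2155, 1408, 623 and 3147 FPKM at E6.5; the ratio of means was 4001 with a 95% counting interval of 1108 to 33040. The zinc transporter Slc39a5 was at least 174-fold higher and the selenium carrier Selenop at least 695-fold higher. Pclaf, a PCNA-binding protein, was at least 545-fold higher. Plac8 rose at least 180.5-fold but to very unequal levels, 282, 483, 1821 and 249.5 FPKM, with the highest in embryo 3. These folds hold against the Taf13 line blastocysts only. In WT blastocysts of the Taf12 line, on the scale of the culture fit below, Plac8 was at 27.4 ± 30.6 FPKM (mean ± SD). Smo was at 6.78 ± 15.2 FPKM there. The other leading risers at 0 in every Taf13 line blastocyst had means of 0 to 1.57 FPKM there. In all 12 genes every E6.5 embryo lay above every blastocyst, as the choice of the genes requires.

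With the same kinds of gene left out, the 12 largest decreases were led by Khdc3. Khdc3, which encodes a component of the subcortical maternal complex, was at 6461, 6281, 5199 and 5892 FPKM in the blastocysts and had no read in any E6.5 embryo, a decrease of at least 6874-fold (log2 fold change -12.54 ± 0.16 SE, adjusted p = 9.17e-10). Crxos, a homeobox gene of the early embryo, fell from 2400, 2401, 2087 and 2264 to 0, 0.7, 0.54 and 0 FPKM (log2 fold change -10.81 ± 0.23 SE, adjusted p = 2.05e-08). Bhmt, which uses betaine to remethylate homocysteine, fell from 2110, 453, 3026 and 2887 to 0, 0.367, 0.595 and 0 FPKM (log2 fold change -10.45 ± 0.58 SE, adjusted p = 2.74e-06; -11.09 without blastocyst 2); blastocyst 2 was low but still far above every E6.5 embryo. Calcoco2, a selective autophagy receptor, fell from 1762, 1505, 1518 and 1659 to 0.365, 0.265, 0.245 and 0.05 FPKM (log2 fold change -10.36 ± 0.18 SE, adjusted p = 4.63e-09). Dppa3, a maternal factor that protects methylation in the zygote and a naive state marker, fell from 2299, 1572, 2136 and 2314 to 1.22, 1.96, 5.24 and 1.35 FPKM (log2 fold change -9.36 ± 0.34 SE, adjusted p = 2.37e-07).

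Dppa1 had 260.1, 492, 280.3 and 285 FPKM at E3.5 and 2 reads in all at E6.5; the ratio of means was 27890 with a 95% counting interval of 7721 to 230300. Trim43a, of an early embryo tripartite motif family with near-identical copies that can share reads, fell from 195, 199, 221 and 219 FPKM to 0, at least 3366-fold lower. The remaining fallers were transporters or metabolic enzymes. Slc1a1, a glutamate and aspartate transporter, was 1632-fold lower at E6.5, the peptide transporter Slc15a2 487-fold lower and the pantetheinase Vnn1 1005-fold lower. The gluconeogenic enzyme Fbp2 was 617-fold lower. Atp12a, a proton pump, went from 97.3, 681, 346 and 589.9 FPKM to 0 in every E6.5 library, at least 170.5-fold lower. As the plot of levels by library shows, the groups were separated by several log2 units in all 24 genes.

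**Figure D2:**
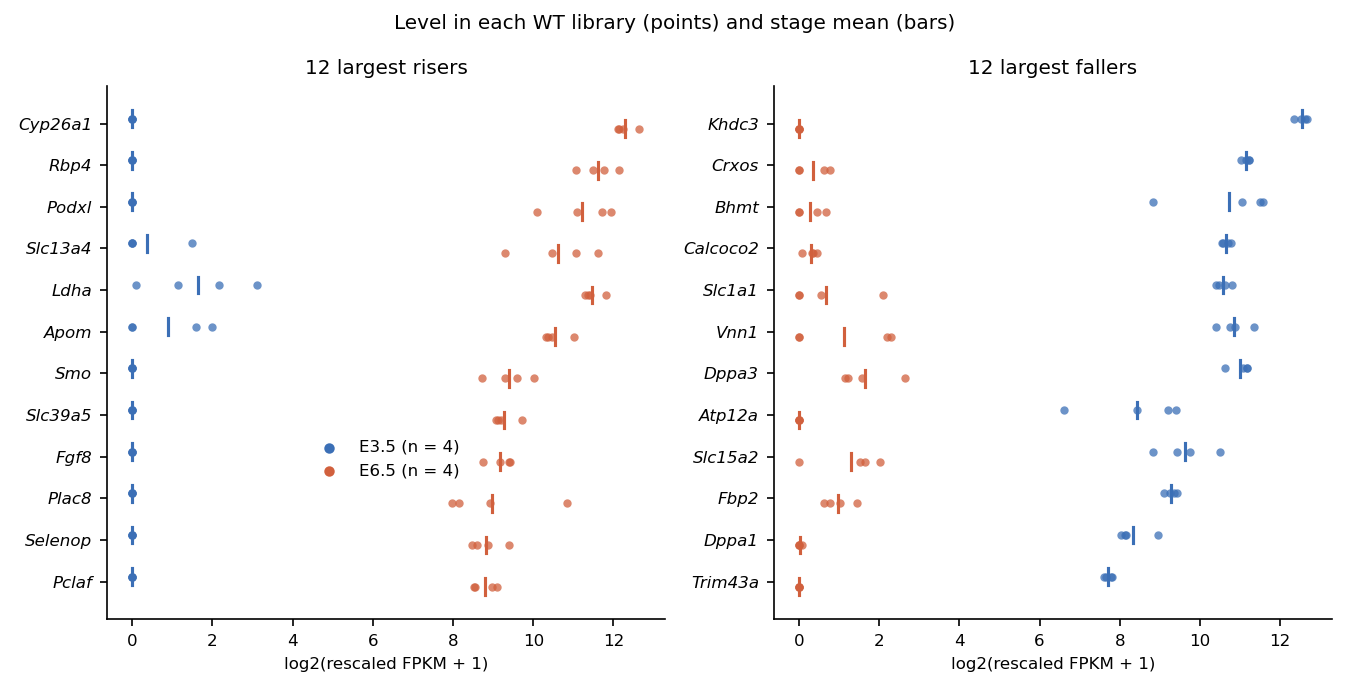
Level of the 24 leading risers and fallers named in the text in each of the 8 WT libraries. The scale is log2(rescaled FPKM + 1), with bars at the stage means of 4 libraries. Cyp26a1 lies at 0 in all 4 blastocysts and at 4402 to 6378 FPKM at E6.5, and Khdc3 at 5199 to 6461 FPKM in the blastocysts and at 0 at E6.5.

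Because the series concerns TFIID, whose TBP subunit binds the TATA box, the promoters of the changed genes were read for TATAAA on the sense strand, starting 40 to 20 bases before the annotated start (RefSeq, build GRCm38.p6). The letters were present in 41 of 1953 genes called at least 1 log2 unit higher that had a window (2.1%), in 21 of 1238 called at least 1 lower (1.7%) and in 61 of 5787 other tested genes (1.05%). Among genes with no read in any blastocyst the count was 19 of 476 (3.99%). Over all 27025 genes with a window, tested or not, it was 650 (2.41%). On either strand anywhere from 250 bases before to 50 after the start, the shares were 9.32% of the genes higher, 8.72% of those lower and 8.02% of the other tested genes. A gene with several annotated starts counted if any of them held the letters. These shares are a description, and a match does not show a used site. Rbp4, the imprinted growth regulator Phlda2 and the endoderm factor Foxa3 carried the letters among the genes that rose; Tfcp2l1, a naive pluripotency factor, carried them among those that fell. Another annotated start of Rbp4 (chr19:38125322-38125401, minus strand) lacked the letters. For contrast, Cyp26a1 and Khdc3, which led the named increases and decreases, did not hold them. The 80 bases before the start are shown 5′ to 3′ for these 6 genes, with TATAAA in capitals where it was found.
Rbp4 (chr19:38124812-38124891, minus strand): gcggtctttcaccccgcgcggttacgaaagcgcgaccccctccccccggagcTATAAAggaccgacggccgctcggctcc
Phlda2 (chr7:143502525-143502604, minus strand): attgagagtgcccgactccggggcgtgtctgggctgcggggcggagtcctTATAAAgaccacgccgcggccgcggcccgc
Foxa3 (chr7:19023540-19023619, minus strand): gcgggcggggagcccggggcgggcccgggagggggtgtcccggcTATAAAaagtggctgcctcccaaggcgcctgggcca
Tfcp2l1 (chr1:118627865-118627944, plus strand): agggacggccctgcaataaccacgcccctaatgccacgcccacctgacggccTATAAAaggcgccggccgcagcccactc
Cyp26a1 (chr19:37697728-37697807, plus strand): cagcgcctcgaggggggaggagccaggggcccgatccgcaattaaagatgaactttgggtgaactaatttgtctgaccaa
Khdc3 (chr9:73102318-73102397, plus strand): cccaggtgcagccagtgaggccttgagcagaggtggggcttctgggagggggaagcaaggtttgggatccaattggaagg

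Genes of naive pluripotency fell and genes of the primed, postimplantation epiblast rose. Of 18 tested naive genes 14 were lower at E6.5 and 2 higher, with a median log2 fold change of -2.53, and without embryo 3 the count of lower genes was 13. Nanog, a core naive factor, fell from 44.9, 62.8, 61.6 and 48.9 to 12.2, 9.13, 6.21 and 9.08 FPKM (log2 fold change -2.47 ± 0.25 SE, adjusted p = 7.07e-05). Klf5 fell from 1112, 1606, 1626 and 1690 to 105, 66.5, 112 and 107 FPKM (log2 fold change -3.95 ± 0.22 SE, adjusted p = 3.06e-06). Klf2, of the same zinc finger family, fell from 19.9, 46.1, 33.4 and 17.1 to 2.25, 1.38, 4 and 2.57 FPKM (log2 fold change -3.03 ± 0.38 SE, adjusted p = 0.000252). Tfcp2l1, whose promoter is shown above, fell from 38.9, 38.9, 35.2 and 44 to 3.99, 2.28, 0.881 and 2.97 FPKM (log2 fold change -3.59 ± 0.32 SE, adjusted p = 3.83e-05). Each of these was lower in every E6.5 embryo than in any blastocyst. Zfp42, known as Rex1 and used as a naive reporter, kept a level of 106, 92.2, 150.5 and 88.7 FPKM at E6.5 against 679, 590.5, 591 and 581 FPKM before (log2 fold change -2.50 ± 0.20 SE, adjusted p = 1.84e-05). Prdm14, a repressor of FGF signalling and of DNA methylation, fell from 2.74, 3.01, 3.89 and 4.93 FPKM to 0 in all 4 E6.5 embryos, and Tcl1, an Akt coactivator, from 98.6, 121, 55.8 and 57.4 FPKM to 0. Tdh, threonine dehydrogenase, and Nr0b1, a nuclear receptor, were the 2 list members that rose, with log2 fold changes of 1.68 and 2.32. Esrrb was at 657, 437, 302 and 268 FPKM in the blastocysts and at 366, 116, 22.3 and 406 FPKM at E6.5, with embryo 3 far below the rest, and did not pass (log2 fold change -1.46 ± 0.84 SE, adjusted p = 0.196; -0.58 without embryo 3); this nuclear receptor is also a gene of extraembryonic ectoderm.

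Factors shared by naive and primed cells did not move together. Of 13 tested, 3 were higher and 5 lower (4 and 5 without embryo 3), with a median of -0.57 (-0.80 to 0.41 over the alternative settings). Pou5f1, which encodes OCT4, fell from 1652, 1197, 1312 and 1681 to 344, 542, 255 and 369 FPKM and stayed above 250 FPKM in every embryo (log2 fold change -1.99 ± 0.24 SE, adjusted p = 0.000217). Dppa2, a developmental pluripotency gene, fell from 1858, 1116, 1824 and 1607 to 42, 43.3, 41.8 and 46 FPKM (log2 fold change -5.15 ± 0.19 SE, adjusted p = 2.87e-07). Utf1, a chromatin protein of pluripotent cells, rose from 388, 217, 204 and 255 to 1058, 909.7, 645 and 1164 FPKM (log2 fold change 1.84 ± 0.26 SE, adjusted p = 0.000541). Lin28a, the RNA-binding repressor of let-7, rose from 18.7, 6.55, 22 and 23.8 to 101, 99.3, 76.5 and 124 FPKM (log2 fold change 2.55 ± 0.38 SE, adjusted p = 0.00075). Tdgf1, the Nodal co-receptor, was at 1649 ± 372 FPKM (SD, n = 4) before and 1684 ± 759 FPKM after (log2 fold change -0.05 ± 0.31 SE, adjusted p = 0.91). Sox2, a defining factor of both states, was under 1 FPKM in all 8 libraries and was not tested. How reads were assigned to genes is not given, so this level does not show that Sox2 RNA was absent.

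Of 14 tested genes of the postimplantation epiblast 12 rose and none fell, with a median of 3.19. Without embryo 3 the count of higher genes was 13. Among them Fgf5, Sox4, Sox11, Sall2 and Zic5 were at 0 in every blastocyst. The filter admitted these genes only through the E6.5 embryos, so their direction follows from it. Fgf5, the classical marker of primed epiblast, had no read in any blastocyst and 194, 246, 136 and 232 FPKM at E6.5, at least 449-fold higher (log2 fold change 7.63 ± 0.25 SE, adjusted p = 1.29e-07). Otx2, the factor that directs the exit from naive pluripotency, rose from 5.53, 12.4, 2.19 and 3.7 to 43.6, 63.7, 37.8 and 43.8 FPKM (log2 fold change 2.98 ± 0.43 SE, adjusted p = 0.000573). The SOX factors Sox4 and Sox11 went from 0 in every blastocyst to 35.6, 28.5, 19.1 and 25.1 and to 19.3, 10.03, 3.06 and 12.6 FPKM. Sall2, a zinc finger factor, went from 0 to 30.03, 23, 9.48 and 34.8 FPKM and Zic5 from 0 to 16.1, 18.6, 10.9 and 13.6 FPKM. In Sox11 and Sall2 embryo 3 was the lowest. Etv5 (log2 fold change 0.69 ± 0.40 SE, adjusted p = 0.199) and Cdh2, N-cadherin (log2 fold change 1.08 ± 0.50 SE, adjusted p = 0.11), did not pass, and Etv5 did without embryo 3 (1.13). Sox3, Pou3f1, Zic2 and Foxd3 were below 2 FPKM in every library and were not tested.

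Streak and mesoderm genes were detected at E6.5, at levels that differed widely between the embryos. Of 12 tested list members 7 rose and 3 fell, with a median of 2.44. T, the brachyury factor of the streak, was at 0 in every blastocyst and at 11.7, 27.6, 0.91 and 7.69 FPKM at E6.5, and was not tested, since it reached 1 FPKM in only 3 libraries. Mesp1, the factor of the earliest mesoderm, was at 30.6, 98.8, 0 and 21.6 FPKM, Mesp2 at 1.62, 4.39, 0 and 0.681 FPKM and Evx1, a homeobox gene of the posterior streak, at 87.1, 52.5, 0 and 127 FPKM, all at 0 at E3.5. In all 4 of these genes embryo 3 was the lowest, and in Mesp1, Mesp2 and Evx1 it had no read. Embryo 2 was the highest for T and the Mesp genes and embryo 4 for Evx1. Mixl1, a streak homeobox gene, rose to 13.9, 14.6, 1.74 and 8.33 FPKM (log2 fold change 3.11 ± 0.52 SE, adjusted p = 0.00138). Lhx1, a gene of streak and anterior visceral endoderm, rose from 0 to 10.5, 11.9, 3.5 and 11.2 FPKM (log2 fold change 3.25 ± 0.36 SE, adjusted p = 0.000119). Wnt3, the inducer of the streak, rose from 2.88, 0, 0 and 0 to 26.2, 21, 15.7 and 29.8 FPKM (log2 fold change 4.07 ± 0.49 SE, adjusted p = 0.000196). Wnt3a and Cdx1 fell, with log2 fold changes of -4.08 and -4.16. Eomes, which serves trophoblast before it serves the streak, fell from 261, 466, 205 and 242 to 128, 69.1, 29.6 and 92.5 FPKM (log2 fold change -1.97 ± 0.45 SE, adjusted p = 0.007). Gsc, the organiser gene goosecoid, was at 27.3, 8.65, 12.9 and 14.3 and 11.1, 24.6, 26.9 and 14.7 FPKM and did not pass.

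Visceral endoderm genes rose almost without exception. Of 24 tested members 23 rose and 1 fell, with a median of 4.97, and leaving out embryo 3 changed neither count. Apoa1, a lipoprotein carrier, was already at 138, 86.4, 105 and 104 FPKM in the blastocysts and rose to 3407, 3134, 4941 and 4810 FPKM (log2 fold change 5.21 ± 0.22 SE, adjusted p = 5.25e-07). Apoe, of the same class, rose from 102, 222, 92.7 and 144 to 4240, 3303, 4019 and 5751 FPKM (log2 fold change 5.00 ± 0.30 SE, adjusted p = 3.93e-06). Ttr, transthyretin, was detected in 1 blastocyst and rose to 311, 318, 437 and 414 FPKM (log2 fold change 8.24 ± 0.31 SE, adjusted p = 2.89e-07). Afp, alpha-fetoprotein, rose to 37.1, 42.1, 41.6 and 49.9 FPKM (log2 fold change 5.12 ± 0.26 SE, adjusted p = 1.65e-06). The iron carrier Trf rose to 182, 108, 127 and 312 FPKM (log2 fold change 7.13 ± 0.40 SE, adjusted p = 3.06e-06). Amn and Cubn, the subunits of the vitamin B12 and albumin receptor, rose with log2 fold changes of 7.92 and 4.58, and Spink1, a secreted trypsin inhibitor, from 0 to 269.8, 376, 558 and 348 FPKM. Lrp2, the endocytic receptor megalin, was the member that fell, from 53.9, 30.7, 39.6 and 47.6 to 12.3, 7.11, 8.74 and 13.1 FPKM (log2 fold change -1.96 ± 0.28 SE, adjusted p = 0.000489). Embryo 3 lay among or just above the other E6.5 embryos for Apoa1, Apoe, Afp and Amn.

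The specification genes of primitive endoderm divided: of 11 tested, 5 rose and 3 fell (6 and 3 without embryo 3), with a median of 0.39. Gata6, which opens the programme in the inner cell mass, fell from 482, 268, 428 and 379.6 to 63.3, 26.6, 149 and 35 FPKM (log2 fold change -2.78 ± 0.49 SE, adjusted p = 0.00185). The FGF receptors of these cells, Fgfr1 and Fgfr2, fell by 1.47 and by 3.54 on the log2 scale. Gata4 rose from 20.2, 20.6, 3.24 and 29.5 to 87.5, 64.3, 43 and 142 FPKM (log2 fold change 2.31 ± 0.63 SE, adjusted p = 0.0162; 1.67 without blastocyst 3). Sox17, like Gata4 a factor of the committed endoderm, rose from 9.37, 6.49, 5.07 and 13.4 to 22.7, 17.7, 18.6 and 23.2 FPKM (log2 fold change 1.24 ± 0.30 SE, adjusted p = 0.0101). Foxa2 and Sox7 were at 0 in every blastocyst and at 6.08 to 12.3 and 6.89 to 9.36 FPKM at E6.5.

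In the anterior visceral endoderm list 8 of 12 genes rose and none fell, with a median of 3.11. The Nodal antagonists Cer1 and Lefty1 went from 0 in every blastocyst to 8.34, 16.5, 9.62 and 15.9 and to 27.2, 27, 37 and 53.2 FPKM (log2 fold change 3.71 ± 0.28 SE, adjusted p = 1.4e-05 for Cer1). The WNT antagonist Dkk1 rose from 45.8, 38.8, 76.9 and 138 to 989.9, 1298, 1202 and 1204 FPKM (log2 fold change 4.12 ± 0.37 SE, adjusted p = 3.78e-05). Sfrp5, another one, rose from 0 in all but blastocyst 3 to 69.3, 61.1, 137 and 113 FPKM (log2 fold change 5.59 ± 0.82 SE, adjusted p = 0.000621; 6.5 without blastocyst 3). Hhex was at 62.5, 76.3, 51.7 and 69 and 57.3, 58.2, 47.3 and 69.7 FPKM and Hesx1 at 9.04, 3.72, 2.93 and 4.84 and 3.38, 5.43, 9.57 and 4.45 FPKM; neither passed. For the parietal endoderm and its basement membrane, 9 of 18 tested genes rose and 3 fell. Srgn, serglycin, rose from 0 to 127, 129, 762 and 93.3 FPKM and was highest in embryo 3 (log2 fold change 7.54 ± 0.60 SE, adjusted p = 2.04e-05; 6.88 without embryo 3); it is also a product of blood cells and decidua. Sparc rose from 12, 23, 14.8 and 23.9 to 94.8, 57.1, 123 and 75.5 FPKM (log2 fold change 2.19 ± 0.31 SE, adjusted p = 0.000562). The laminin genes Lama1, Lamb1 and Lamc1 did not pass. Thbd, the defining surface marker thrombomodulin, was below 2 FPKM in every library. Plat, tissue plasminogen activator, fell from 263, 951, 495 and 1187 to 26.5, 27.1, 405 and 52.9 FPKM (log2 fold change -3.27 ± 0.87 SE, adjusted p = 0.0149; -4.15 without embryo 3), with embryo 3 inside the range of the blastocysts.

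Genes of the blastocyst trophectoderm mostly fell. Of 24 tested, 17 were lower and 3 higher (17 and 4 without embryo 3), with a median of -1.89. Cdx2, the factor that sets up the lineage, fell from 112, 141, 114 and 145 to 17.4, 9.46, 9.94 and 16.3 FPKM (log2 fold change -3.21 ± 0.25 SE, adjusted p = 1.77e-05). Gata3, which acts beside it, fell from 476, 782, 734 and 823 to 21.4, 9.78, 13.6 and 19.98 FPKM (log2 fold change -5.38 ± 0.29 SE, adjusted p = 2.32e-06). Cldn4, a tight junction protein of the pumping epithelium, fell from 17500, 24390, 18270 and 20930 to 3284, 3125, 4670 and 3014 FPKM (log2 fold change -2.54 ± 0.18 SE, adjusted p = 1.01e-05). Krt8, a simple epithelial keratin, fell from 1943, 2322, 1709 and 1742 to 673, 549, 601 and 618 FPKM (log2 fold change -1.65 ± 0.15 SE, adjusted p = 4.02e-05). Aqp9, a water and glycerol channel, fell from 249, 203, 241 and 132 FPKM to at most 0.148 FPKM and Tspan8, a tetraspanin, from 983, 4281, 1545 and 1693 to 10.8, 6.49, 15.8 and 7.4 FPKM. In these genes no E6.5 library reached the lowest blastocyst. The 3 members that rose were Krt19, from 0 to 112, 85.2, 91.1 and 54.9 FPKM, Cldn6, from 122, 118, 149 and 124 to 1042, 829, 725 and 1045 FPKM, and Aqp8, from 10.1, 96.3, 50.4 and 24.4 to 656, 519, 1226 and 574 FPKM. Tfap2c, shared with extraembryonic ectoderm, was at 208 ± 57.9 FPKM before and 261 ± 50.5 FPKM after (log2 fold change 0.35 ± 0.23 SE, adjusted p = 0.255).

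The extraembryonic ectoderm, the trophoblast stem cell layer of the egg cylinder, was seen through 10 genes that rose and 4 that fell of 19 tested (11 and 4 without embryo 3), with a median of 1.51. Elf5, its defining factor, rose from 0.83, 8.31, 3.52 and 2.3 to 18.8, 16.9, 21.4 and 19.2 FPKM (log2 fold change 2.33 ± 0.46 SE, adjusted p = 0.00322). Bmp4, the signal it sends to the epiblast, rose from 0, 16.9, 5.07 and 6.33 to 96.6, 79.6, 70.3 and 104 FPKM (log2 fold change 4.04 ± 0.75 SE, adjusted p = 0.00244; 3.22 without blastocyst 1). Bmp8b, another such signal, rose from under 1 FPKM to 14.2, 6.84, 6.2 and 14.1 FPKM (log2 fold change 3.03 ± 0.36 SE, adjusted p = 0.000198). Ascl2, an imprinted factor of the placental precursor, rose from 0 to 150.3, 121, 104 and 78 FPKM (log2 fold change 6.80 ± 0.26 SE, adjusted p = 2.89e-07). The X-linked homeobox gene Rhox5 rose from 0 to 109, 114, 214 and 118 FPKM (log2 fold change 7.07 ± 0.27 SE, adjusted p = 3.12e-07). The decrease of Cdx2, Eomes and Fgfr2, which are also in this list, is given above. Of 32 genes of the ectoplacental cone and giant cells only 10 could be tested, and 9 of them rose. Prl3d1, placental lactogen, had 6.38, 25, 196 and 5.38 FPKM, with 196 FPKM in embryo 3; its near-identical copies Prl3d2 and Prl3d3 may share its reads. Tpbpa, the defining gene of the cone, was at 0.198, 0.108, 5.24 and 0.475 FPKM.

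**Figure D3:**
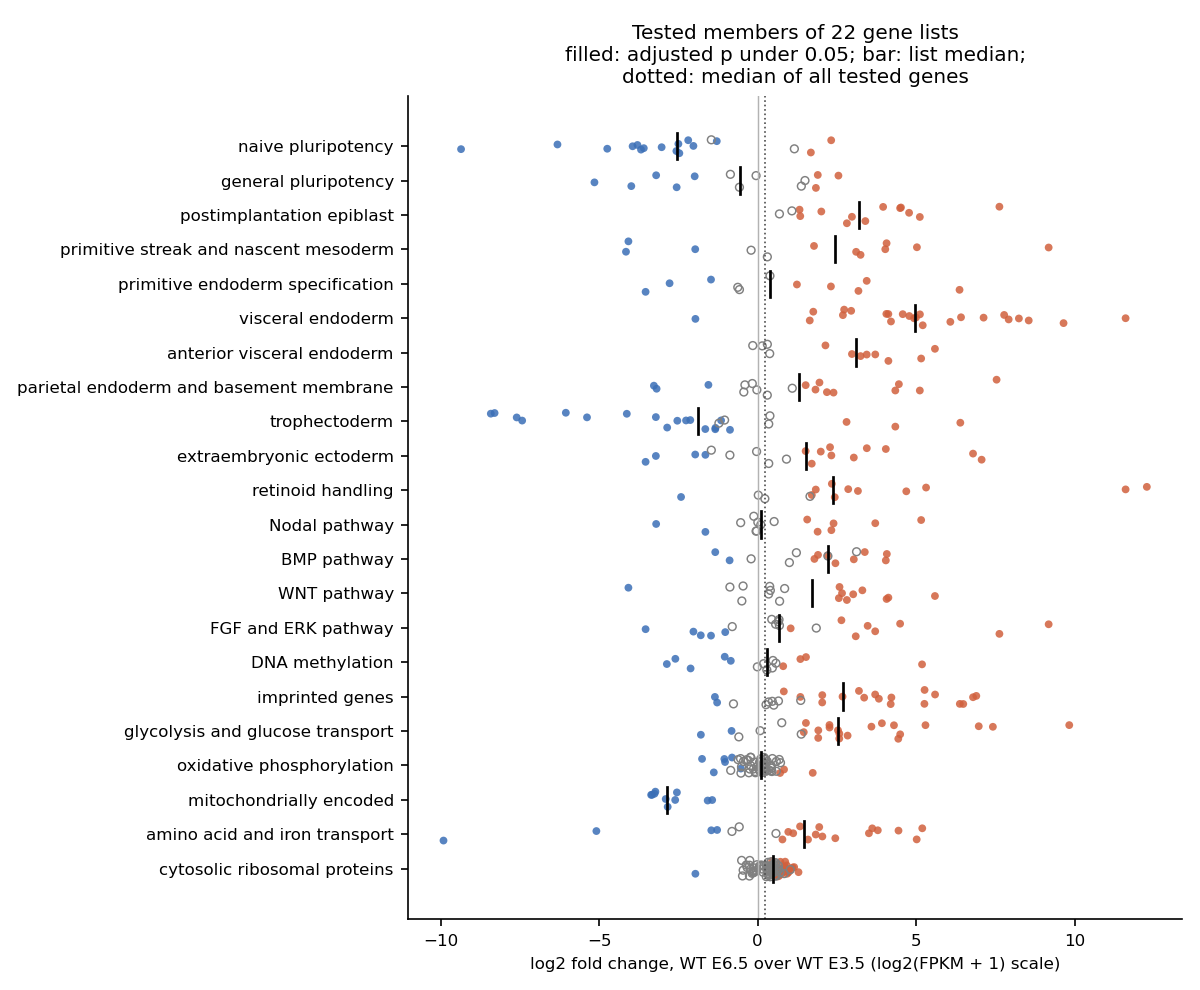
Log2 fold change of WT E6.5 over WT E3.5 for the tested members of 22 gene lists; filled points are genes with adjusted p under 0.05, bars are list medians and the dotted line is the median of all tested genes, 0.23. Visceral endoderm genes lie around their median of 4.97, trophectoderm genes around -1.89, and the mitochondrially encoded genes are all below 0.

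Retinoid handling genes rose with the 2 genes that lead the risers: 10 of 14 tested were higher and 1 lower, with a median of 2.39. Crabp2, a retinoic acid carrier, rose from 0 to 7.45, 7.3, 9.39 and 7.86 FPKM (log2 fold change 3.16 ± 0.20 SE, adjusted p = 4.93e-06). Rdh10, which makes retinaldehyde, rose from 8.43, 4.44, 8.57 and 3.62 to 20.9, 21.1, 29.98 and 23.5 FPKM (log2 fold change 1.83 ± 0.31 SE, adjusted p = 0.00142). Stra6, the receptor for RBP4, was at 0 at E3.5 and at 3.87, 6.24, 25.9 and 1.91 FPKM later, with the highest level in embryo 3 (log2 fold change 2.86 ± 0.60 SE, adjusted p = 0.00454; 2.24 without embryo 3). The receptor gene Rara rose from 0 to 27, 25.2, 14.2 and 38.8 FPKM (log2 fold change 4.69 ± 0.32 SE, adjusted p = 7.91e-06). Its relative Rarb fell from 7.25, 5.69, 5.27 and 3.32 to 0.161, 0, 0.302 and 0.215 FPKM (log2 fold change -2.42 ± 0.25 SE, adjusted p = 8.49e-05). The synthesising enzymes Aldh1a1, Aldh1a2 and Aldh1a3 were at 0 in most libraries of both stages and were not tested; the highest E6.5 level of Aldh1a2 was 8.95 FPKM, in embryo 3.

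Genes of the signals that pattern the egg cylinder moved both ways. In the Nodal list 6 of 15 genes rose and 2 fell (5 and 2 without embryo 3), with a median of 0.10 (-0.03 to 0.98 over the alternative settings). Nodal itself went from 0 in every blastocyst to 5.87, 4.13, 4.46 and 2.98 FPKM (log2 fold change 2.40 ± 0.22 SE, adjusted p = 3.88e-05). Its target and antagonist Lefty2 rose from 0 to 2.87, 16.6, 2.04 and 2.06 FPKM, with embryo 2 the highest. Foxh1, the transcription factor of the pathway, rose from 135, 115, 109.7 and 153 to 419, 369.5, 202 and 647 FPKM (log2 fold change 1.56 ± 0.33 SE, adjusted p = 0.0046). Gdf3, a Nodal partner, fell from 47.7, 23.9, 15.2 and 29.7 to 1.56, 1.07, 4.2 and 2.03 FPKM (log2 fold change -3.20 ± 0.41 SE, adjusted p = 0.000305). The receptor genes Acvr1b, Acvr2a and Acvr2b and the transducer genes Smad2 and Smad4 did not pass. In the BMP list 8 of 15 rose and 2 fell, with a median of 2.21. The target Id1 rose from at most 0.288 FPKM to 17.3, 14.7, 21.7 and 16.7 FPKM (log2 fold change 4.08 ± 0.24 SE, adjusted p = 3.7e-06). Id3 rose from 9.96, 15.9, 13.4 and 9.66 to 61, 63.5, 89.8 and 70.2 FPKM (log2 fold change 2.45 ± 0.24 SE, adjusted p = 5.63e-05). Id2, a target that trophectoderm expresses strongly, fell from 2518, 5362, 2009 and 2582 to 1173, 996, 1361 and 1075 FPKM (log2 fold change -1.34 ± 0.29 SE, adjusted p = 0.00537).

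In the WNT list 9 of 18 tested genes rose and 1 fell (10 and 1 without embryo 3), with a median of 1.71. Lef1, a transcription factor gene of the pathway like Tcf7, rose from at most 0.157 FPKM to 8.34, 8.48, 2.98 and 8.67 FPKM (log2 fold change 2.81 ± 0.32 SE, adjusted p = 0.000151). Tcf7 rose from 0 to 8.65, 4.53, 2.83 and 6.85 FPKM (log2 fold change 2.66 ± 0.30 SE, adjusted p = 0.000141). Axin2, a general WNT target, was at 6.24, 2.68, 0.921 and 2.27 and then 3.72, 1.34, 0.502 and 1.81 FPKM (log2 fold change -0.46 ± 0.47 SE, adjusted p = 0.467). In the FGF and ERK list 8 of 20 rose and 5 fell (10 and 3 without embryo 3), with a median of 0.68. The ligand of the inner cell mass, Fgf4, fell from 16.6, 128, 150.5 and 91.4 to 13.1, 13.7, 11.3 and 44.5 FPKM (log2 fold change -2.03 ± 0.71 SE, adjusted p = 0.0466), a call that was lost without any 1 of blastocysts 2, 3 and 4 or of E6.5 embryos 1, 2 and 3 (-1.94 to -1.70). The Fgf4 call was also lost with a pseudocount of 0.1 (-2.08), with recovered reads in place of FPKM (-2.035) or with no filter on low values. Fgf8 and Fgf5 rose as described, and Fgf15 went from 0 to 11.7, 8.56, 8.84 and 11.6 FPKM (log2 fold change 3.47 ± 0.22 SE, adjusted p = 4.91e-06). The ERK-induced factor Etv4 rose from at most 0.0926 FPKM to 27.3, 26.6, 7.44 and 41.8 FPKM (log2 fold change 4.50 ± 0.47 SE, adjusted p = 9.04e-05). The feedback inhibitor Spry4 rose from 0, 36.9, 42.4 and 22.8 to 233, 233, 82 and 251 FPKM (log2 fold change 3.71 ± 1.12 SE, adjusted p = 0.0257), a call lost without E6.5 embryo 1, 2 or 4 (3.57 to 3.60) and at 2.42 without blastocyst 1. The Spry4 call was also lost with a pseudocount of 0.1 (4.56) or with no filter. Spry2 fell, with a log2 fold change of -1.79, and Dusp6 did not pass (log2 fold change 0.67 ± 0.29 SE, adjusted p = 0.0867) but did without blastocyst 2 or embryo 3 (0.87 in both).

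DNA methylation genes moved both ways. Of 15 tested, 4 rose and 5 fell (6 and 5 without embryo 3), with a median of 0.29; the share that rose was that of all tested genes, 26.7%, and 17.3% of all tested genes fell. The de novo methyltransferases Dnmt3a and Dnmt3b rose. Dnmt3a went from 133, 116, 140.3 and 212 to 466, 389.7, 188 and 570 FPKM (log2 fold change 1.35 ± 0.35 SE, adjusted p = 0.0134). Dnmt3b went from 23.9, 37.1, 23.8 and 21.5 to 119, 97.8, 23 and 126 FPKM (log2 fold change 1.52 ± 0.52 SE, adjusted p = 0.0407). Embryo 3 overlapped the blastocysts in both. The Dnmt3b call was lost without any of blastocysts 1, 3 and 4 or of E6.5 embryos 1, 2 and 4 (1.29 to 1.47). It was also lost with FPKM as deposited (1.37), with libraries set to the same total (1.46) or with no filter on low values. The oxidases Tet1 and Tet2 fell. Tet1 went from 43.6, 53.8, 41.3 and 24.6 to 10.6, 6.38, 1.54 and 8.08 FPKM (log2 fold change -2.60 ± 0.48 SE, adjusted p = 0.00239). Tet2 went from 3.83, 6.73, 8.67 and 9.04 FPKM to under 0.1 FPKM (log2 fold change -2.87 ± 0.27 SE, adjusted p = 5.42e-05). Uhrf2 rose from 2.48, 0.777, 26.4 and 5.18 to 284, 154, 294 and 141 FPKM (log2 fold change 5.19 ± 0.75 SE, adjusted p = 0.000605; 5.93 without blastocyst 3). Dnmt1, the maintenance enzyme, did not pass (log2 fold change 0.46 ± 0.49 SE, adjusted p = 0.481). Zfp57, the guardian of imprints, fell from 148, 235, 103 and 149 to 31.7, 38.8, 33.8 and 33.4 FPKM (log2 fold change -2.12 ± 0.25 SE, adjusted p = 0.000196).

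Imprinted genes, expressed from a single parental copy and many of them growth regulators, were mostly higher at E6.5. Of 27 tested, 18 were higher and 2 lower (16 and 2 without embryo 3), with a median of 2.68. H19, a maternal non-coding RNA, rose from 0, 3.47, 0 and 0 to 152, 80.6, 88.1 and 192 FPKM (log2 fold change 6.38 ± 0.55 SE, adjusted p = 3.1e-05). Igf2, the growth factor gene next to it, rose from 0, 2.26, 2.86 and 0 to 27.5, 11.5, 8.73 and 24.7 FPKM (log2 fold change 3.20 ± 0.58 SE, adjusted p = 0.00215). Phlda2 rose from 0 to 118, 109, 204 and 75.1 FPKM (log2 fold change 6.90 ± 0.31 SE, adjusted p = 9.03e-07). Cdkn1c, a CDK inhibitor of the same cluster, rose from 0 in 3 of 4 blastocysts to 49.9, 34, 59.9 and 37.7 FPKM (log2 fold change 5.26 ± 0.32 SE, adjusted p = 4.5e-06). Grb10, an adaptor that restrains growth, rose from 1.41, 3.08, 0 and 0.488 to 267, 163, 76 and 279 FPKM (log2 fold change 6.49 ± 0.54 SE, adjusted p = 2.67e-05). Peg10, a retrotransposon-derived placental gene, rose from 57.6, 7.92, 2.89 and 24.9 to 920.5, 538, 271 and 853 FPKM (log2 fold change 5.27 ± 0.80 SE, adjusted p = 0.000784; 5.9 without blastocyst 1 and 4.6 without blastocyst 3). The Dlk1 to Meg3 cluster rose as well: Dlk1 went from 0 to 7.74, 5.49, 1.24 and 12.2 FPKM (log2 fold change 2.68 ± 0.49 SE, adjusted p = 0.00212). Meg3 went from 5.98, 5.62, 4.98 and 1.29 to 39.97, 12.6, 18.4 and 15.8 FPKM (log2 fold change 2.04 ± 0.47 SE, adjusted p = 0.00749). Igf2r, the clearance receptor of IGF2, and Slc38a4 were the 2 that fell, with log2 fold changes of -1.35 and -1.28. Several imprinted genes were on or off in single blastocysts, such as Sgce at 0, 73.2, 74.7 and 0 FPKM and Mest at 873, 6.08, 528 and 650 FPKM. Mest rose to 3805, 3673, 3505 and 5239 FPKM (log2 fold change 4.22 ± 1.38 SE, adjusted p = 0.035), a call lost without any single E6.5 embryo (4.10 to 4.30) and at 2.57 without blastocyst 2. That call was also lost with no filter on low values.

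Most tested glycolytic genes rose, few nuclear genes of oxidative phosphorylation passed the test, and the tested genes of the mitochondrial genome fell. Of 25 tested genes of glycolysis and glucose transport 19 were higher and 2 lower (20 and 2 without embryo 3), with a median of 2.54. Slc2a1, the glucose transporter GLUT1, rose from 104, 45.6, 74.1 and 45.2 to 1692, 1326, 913 and 1245 FPKM (log2 fold change 4.30 ± 0.31 SE, adjusted p = 1.14e-05). Eno1, enolase, rose from 227, 233, 192 and 200.4 to 4185, 3629, 1810 and 3957 FPKM (log2 fold change 3.92 ± 0.27 SE, adjusted p = 8.25e-06). Aldoc, an aldolase, and Ldhb, the heart-type lactate dehydrogenase, went from 0 in every blastocyst to 141, 132, 145 and 89.98 and to 17.9, 24.6, 19.8 and 20.8 FPKM. The lactate exporter Slc16a3 rose to 183, 247, 152 and 209 FPKM (log2 fold change 7.42 ± 0.25 SE, adjusted p = 1.45e-07). Pdk1, which holds pyruvate back from the mitochondrion, rose to 49.7, 47.1, 41 and 36.8 FPKM (log2 fold change 4.50 ± 0.52 SE, adjusted p = 0.00016). Hk2 and Taldo1 fell, though Taldo1 was at 0.205 on the log2 scale under upper-quartile scaling. Hk2 went from 177, 173, 96.4 and 139 to 71.4, 32.2, 23.9 and 48.3 FPKM (log2 fold change -1.79 ± 0.36 SE, adjusted p = 0.00347). Embryo 3 was the lowest of its stage in Eno1, Pkm and Gapdh and still above every blastocyst in each. Of 57 tested nuclear genes of oxidative phosphorylation 3 rose and 6 fell (4 and 12 without embryo 3), with a median of 0.09; under upper-quartile scaling the median was 1.09 and up to 44 were called higher.

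All 10 mitochondrially encoded genes that could be tested fell, with a median of -2.87, and fell without embryo 3 as well. Their share of all FPKM was 5.98% to 6.29% in the blastocysts and 1.86%, 0.858%, 1.17% and 0.352% in E6.5 embryos 1 to 4. Cytochrome b, mt-Cytb, fell from 39800, 39350, 43740 and 39830 to 9911, 4322, 5412 and 1140 FPKM (log2 fold change -3.33 ± 0.56 SE, adjusted p = 0.00133; -2.72 without embryo 4). mt-Co1, a subunit of cytochrome oxidase, fell from 13630, 16100, 14370 and 14730 to 5664, 2701, 3183 and 701 FPKM (log2 fold change -2.60 ± 0.54 SE, adjusted p = 0.00437; -2.0 without embryo 4). The ribosomal RNA mt-Rnr2 fell from 18150, 19110, 15920 and 19590 to 6962, 4888, 12350 and 3252 FPKM (log2 fold change -1.58 ± 0.36 SE, adjusted p = 0.00673). Embryo 4 was the lowest and embryo 1 or 3 the highest of its stage in these 3 genes. The remaining genes were hardly counted: mt-Co2, mt-Nd3 and mt-Nd4l were listed below 1 FPKM in all 8 libraries.

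Amino acid and iron transport changed with 15 of 22 genes higher and 4 lower (14 and 4 without embryo 3), with a median of 1.46. Slc7a7, a cationic amino acid exporter subunit, rose from 147, 766, 262 and 279 to 3566, 3807, 2861 and 4858 FPKM (log2 fold change 3.62 ± 0.44 SE, adjusted p = 0.000231). Its partner Slc3a2 rose from 2865, 3123, 3255 and 2170 to 7368, 7727, 5815 and 7803 FPKM (log2 fold change 1.34 ± 0.17 SE, adjusted p = 0.00028). Slc38a2, a glutamine and alanine transporter, rose from 8.48, 62.2, 0 and 3.14 to 283, 295, 187 and 280 FPKM (log2 fold change 5.19 ± 1.06 SE, adjusted p = 0.00392; 6.24 without blastocyst 2 and 4.24 without blastocyst 3). Slc6a14, a broad amino acid importer, fell from 12.2, 92.5, 29.98 and 40.7 FPKM to at most 0.189 FPKM (log2 fold change -5.09 ± 0.53 SE, adjusted p = 8.89e-05). The iron store Fth1 rose from 5606, 3683, 6009 and 4684 to 18560, 18630, 23050 and 20980 FPKM (log2 fold change 2.04 ± 0.17 SE, adjusted p = 2.89e-05). The iron exporter Slc40a1 rose from at most 1.92 FPKM to 42.5, 48.8, 60.7 and 49.5 FPKM (log2 fold change 5.02 ± 0.39 SE, adjusted p = 1.78e-05).

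Growth and cell cycle genes showed smaller and mixed changes. Of 19 tested G1 genes 8 rose and 2 fell (6 and 2 without embryo 3). Cdk4, a G1 kinase, rose from 451, 449, 416 and 369 to 1445, 1938, 2417 and 1577 FPKM (log2 fold change 2.10 ± 0.19 SE, adjusted p = 3.83e-05). Ccnd1, cyclin D1, rose from 20.9, 49.3, 105 and 39.2 to 249.5, 256, 132 and 267 FPKM (log2 fold change 2.23 ± 0.46 SE, adjusted p = 0.00425). Mycn, a growth-promoting MYC family gene, rose from 48.7, 50.7, 67.3 and 12.1 to 204, 165, 75.1 and 216 FPKM (log2 fold change 1.98 ± 0.55 SE, adjusted p = 0.0175), a call lost with no filter on low values. Of 26 replication licensing genes 5 rose and none fell (10 and 1 without embryo 3), among them Gins2, from 13.1, 22.5, 16.9 and 25.9 to 60.7, 81.3, 145 and 70.6 FPKM (log2 fold change 2.10 ± 0.33 SE, adjusted p = 0.000877). Of 25 mitotic genes 2 rose and 6 fell (2 and 4 without embryo 3, and up to 13 higher under upper-quartile scaling), with Cenpe, the kinetochore motor, the largest decrease (log2 fold change -2.28 ± 0.36 SE, adjusted p = 0.000966). Of 80 cytosolic ribosomal protein genes 22 rose and 1 fell (22 and 5 without embryo 3, and up to 73 higher over the alternative settings), with a median of 0.49 against 0.23 for all genes; the share that rose was close to the 26.7% of all tested genes. Rplp0, a stalk protein of the large subunit, rose from 2371, 2044, 2289 and 2181 to 4201, 5969, 7764 and 4439 FPKM (log2 fold change 1.29 ± 0.20 SE, adjusted p = 0.000962). Many of these genes have pseudogenes that can share reads. Of 21 p53 targets none rose and 1 fell (1 and 1 without embryo 3): Ei24, a p53-induced gene, was lower at E6.5 (log2 fold change -0.78, lost without blastocyst 3 or E6.5 embryo 1, 2 or 4 at -0.76 to -0.61, and 0.24 under upper-quartile scaling). The Ei24 call was also lost with no filter on low values. The histone variants of the macroH2A family moved in opposite directions. Macroh2a1 fell from 108, 123, 118 and 108 to 18.1, 13.5, 11.4 and 15.3 FPKM (log2 fold change -2.90 ± 0.20 SE, adjusted p = 7.48e-06). Macroh2a2 rose from 48, 0, 90.7 and 6.99 to 330.3, 395, 193 and 409 FPKM (log2 fold change 4.54 ± 1.25 SE, adjusted p = 0.0168; 3.27 to 5.44 without 1 of blastocyst 1, blastocyst 2, blastocyst 3), a call lost with a pseudocount of 0.1 (5.42) or with no filter.

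Of 24 tested genes of cell adhesion and junctions 9 fell and 4 rose (8 and 3 without embryo 3). The list median ran from -0.75 to 0.78 over the alternative settings. Epcam fell from 12970, 13160, 14240 and 14150 to 3326, 3887, 3722 and 3747 FPKM (log2 fold change -1.89 ± 0.11 SE, adjusted p = 3.3e-06). E-cadherin, Cdh1, fell from 775, 1150, 956 and 948 to 444, 397, 125 and 529 FPKM (log2 fold change -1.52 ± 0.42 SE, adjusted p = 0.0171). P-cadherin, Cdh3, rose from 30.2, 20.4, 16.6 and 8.56 to 136, 77.1, 50.4 and 114 FPKM (log2 fold change 2.28 ± 0.42 SE, adjusted p = 0.00242). Spp1, osteopontin, fell from 219.6, 571, 308 and 276 to 1.82, 1.22, 3.92 and 1.1 FPKM (log2 fold change -6.83 ± 0.38 SE, adjusted p = 2.74e-06). Of 14 tested TFIID genes 3 rose and 1 fell. The gene named in the genotype label, Taf13, was at 29.7, 43.1, 39.4 and 26.7 and then 25.8, 27.5, 50.4 and 30.8 FPKM (log2 fold change -0.07 ± 0.27 SE, adjusted p = 0.858). Tbp rose from 11.1, 11.1, 20.2 and 9.77 to 24.1, 29, 32 and 24.6 FPKM (log2 fold change 1.06 ± 0.27 SE, adjusted p = 0.0111). Its paralogue Tbpl1 rose from 694, 723, 542 and 567 to 986, 1341, 2004 and 999 FPKM (log2 fold change 1.02 ± 0.25 SE, adjusted p = 0.00902). Taf6 rose from 172, 239, 202 and 251 to 350.3, 381, 276 and 434 FPKM (log2 fold change 0.73 ± 0.20 SE, adjusted p = 0.0161). Taf4b, a paralogue of Taf4 with a role in germ cells, fell from 819, 711, 783 and 559 to 247, 130.4, 56 and 249.8 FPKM (log2 fold change -2.28 ± 0.45 SE, adjusted p = 0.00335).

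Genes of the sex chromosomes differed between the embryos sampled at the 2 stages, and embryo sex was not a term of the fit. The Y-linked gene Ddx3y was at 149, 104, 185 and 141 FPKM in the blastocysts and at 11.7, 60.6, 0 and 1.32 FPKM at E6.5, and Xist, the RNA of the inactive X, at 0, 0.0283, 0 and 0 and 3.42, 0.219, 9.79 and 1.39 FPKM. Ddx3y, Eif2s3y and Uty were called lower at E6.5, with log2 fold changes of -4.45, -4.13 and -3.62, and none of the 3 was called in the HET comparison. With the WT blastocysts of all 3 lines as the start none of the 3 was called (-1.47, -1.53 and -1.21), and with those of the Taf12 line Ddx3y was at 1.23. Every blastocyst thus carried Y-linked RNA at a high level, while the E6.5 embryos were unequal. For these genes stage cannot be told apart from the sex of the embryos sampled. The part of sex makeup in other results was not tested.

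HET embryos went through the same stages with other animals and gave a second measurement of the change. On the same 11875 genes 7049 (59.4%) were called, 4183 (35.2%) higher and 2866 (24.1%) lower, with 4 and 9 libraries. Of the 5227 genes called in WT, 4788 were called in the same direction in HET, which is 91.6% of the WT calls and 67.9% of the HET calls; 4 were called in the opposite direction. The log2 fold changes of the leading genes in HET were -12.53 for Khdc3, 11.64 for Rbp4, 10.90 for Cyp26a1, 9.33 for Ldha and 7.78 for Fgf5. Unlike the WT blastocysts, HET blastocyst 3 had Cyp26a1 at 48.7 FPKM, and the other HET blastocysts were at 0. HET E6.5 embryos 8 and 9 carried Prl8a2 at 2421 and 1150 FPKM, against 6.31 to 195.4 FPKM in the others, and leaving both out gave 7016 calls.

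The change itself differed between WT and HET in 7 of 11875 genes (0.0589%). Rian, a non-coding RNA of the Dlk1 to Meg3 cluster, rose by 3.71 on the log2 scale in WT and by 7.74 in HET (difference -4.06 ± 0.52 SE, adjusted p = 0.000757). The difference lay at E3.5: Rian was at 7.17 to 38.7 FPKM in the WT blastocysts and at 0 to 1.31 FPKM in the HET blastocysts, and at 226 to 341 and 170 to 485 FPKM at E6.5. Tnfrsf22, a decoy receptor, went from 0 to 38.1, 19.2, 21.6 and 37.2 FPKM in WT (log2 fold change 4.84) and did not pass in HET (0.368). In WT blastocysts of the Taf12 line Tnfrsf22 was at 16.8 ± 10.5 FPKM, on the scale of the culture fit below. The start at 0 is thus not shared by all WT blastocysts of the series. On that scale Gm49760 was at 9.75 ± 9.58 FPKM in those blastocysts and 0.262 FPKM in the Taf13 line. Rian was at 13.6 ± 12.8 and 22.8 FPKM. Gramd3 rose by 6.00 in WT and by 2.77 in HET, a difference that lost its call without WT embryo 3 and HET embryos 8 and 9 (3.07). Gm49760, 2610318N02Rik and 9230009I02Rik have no assigned role in the files, with differences of 3.78, -1.73 and -1.64; that of 2610318N02Rik lost its call without blastocyst 1 or any single WT E6.5 embryo (-1.74 to -1.67). The number of such genes was unstable: leaving out single libraries gave 6 to 38, the highest without blastocyst 2, and leaving out the 3 libraries high in Prl8a2 gave 5.

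Development in the uterus was then set against growth in the dish. Of 13778 genes tested in the 4 groups together 3798 (27.6%) changed differently from E3.5 to E6.5 than from E3.5 to the outgrowth: 2052 (14.9%) were relatively higher in utero and 1746 (12.7%) relatively higher in culture. The lines differ as well, Taf13 in utero and Taf12 in culture, and line cannot be told apart from the setting. Levels are means ± SD over 4 outgrowths and 4 E6.5 embryos, rescaled over the 17 libraries of this fit. Of 24 visceral endoderm genes 23 were relatively higher in utero, with a median difference of 3.58 against 0.09 for all tested genes. The filter of this fit also admits a gene that reached 1 FPKM in the 4 E6.5 embryos alone. The direction of any list member admitted that way follows from the filter, and the count and median include such members. Afp was at 0.775 ± 0.437 FPKM in the outgrowths and 42.4 ± 5.28 FPKM at E6.5 (difference 4.32 ± 0.32 SE, adjusted p = 1.36e-07). Rbp4 was at 65.4 ± 76 and 3225 ± 1009 FPKM (difference 6.34 ± 0.82 SE, adjusted p = 3.78e-05; 5.64 without outgrowth 1 and 7.08 without outgrowth 4). Slc2a2, the glucose transporter GLUT2, was at 0.146 ± 0.209 and 27.2 ± 6.92 FPKM (difference 4.6 ± 0.30 SE, adjusted p = 3.41e-08).

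Epiblast genes were also relatively higher in utero, in 13 of 14 cases with a median of 2.66. The same limit holds for any of them that the filter admitted through the E6.5 embryos alone. Pou5f1 was at 1443 ± 237 FPKM in Taf13 line blastocysts and 375 ± 118 FPKM at E6.5, and at 1684 ± 287 FPKM in Taf12 line blastocysts and 12.1 ± 18.2 FPKM in the outgrowths (difference 6.34 ± 1.06 SE, adjusted p = 0.000358; 7.31 without outgrowth 2 and 5.54 without outgrowth 4). Fgf5 was at 200.3 ± 48.5 FPKM at E6.5 and 5.44 ± 8.07 FPKM in the outgrowths (difference 5.65 ± 0.72 SE, adjusted p = 3.1e-05; 6.4 without outgrowth 2). Of the 8 largest differences in favour of the uterus, Fgf8 (8.27), Tdgf1 (7.93), Slc13a4 (9.37) and the decidual Prl8a2 (8.63) are described above; the others were the vesicle GTPase Rab34 (8.44), Vat1l (7.94), the scavenger receptor Colec12 (7.86) and Tc2n (7.71). Over the alternative settings these 8 differences lay between 7.13 and 13.4 and kept their call. Prl8a2 was at 0 in the blastocysts of both lines and in the outgrowths, so its direction follows from the filter. A difference in favour of the uterus can also come from a decrease in culture. Vat1l did not pass between the WT stages (log2 fold change 1.99, adjusted p = 0.357) and was lower at E6.5 in HET (-3.07). From Taf12 line blastocysts to outgrowths it went from 146.5 ± 101.6 FPKM to 0. Between the same groups Tc2n went from 29.8 ± 22.9 to 1.45 ± 2.91 FPKM and Tdgf1 from 1291 ± 926 to 33.1 ± 65.3 FPKM.

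Trophoblast giant cell genes went the other way. Of 23 tested genes of the ectoplacental cone and giant cells 18 were relatively higher in culture and none in utero, with a median of -4.97. Only 10 members of this list were tested in the stage comparison. A gene that reached 1 FPKM in the 4 outgrowths alone passed the filter of this fit. The direction of any list member admitted that way follows from the filter, and the count and median include such members. Prl3d1 was at 21500 ± 5465 FPKM in the outgrowths and 58.2 ± 92.5 FPKM at E6.5 (difference -9.89 ± 1.01 SE, adjusted p = 3.34e-06; -10.95 without embryo 3 and -9.29 without embryo 4). Hand1, a factor of giant cell differentiation, was at 6254 ± 1413 and 203 ± 96.8 FPKM (difference -4.67 ± 1.40 SE, adjusted p = 0.021; -5.52 without blastocyst 2 and -3.95 without Taf12 line blastocyst 3), a call lost with a pseudocount of 0.1 (-4.68). Of the 8 largest differences in favour of culture 6 were prolactin family genes. These were Prl5a1, Prl2a1, Prl4a1 and the Prl3d genes, with values from -10.28 to -9.89. The others were the cytokine subunit Il23a (-10.50) and the ectonucleotidase Entpd1 (-9.75). At E6.5 Prl2a1 had no read, and the means of Prl4a1 and Prl5a1 were 0.962 and 5.68 FPKM. Prl2a1, Prl4a1 and Prl5a1 were at 0 in the blastocysts of both lines. They passed the filter only through the outgrowths, so their direction follows from it as well. Of 23 p53 targets 13 were relatively higher in culture and 1 in utero: Cdkn1a, the CDK inhibitor p21, was at 144 ± 79.1 FPKM in the outgrowths and 3.57 ± 0.764 FPKM at E6.5 (difference -3.67 ± 0.99 SE, adjusted p = 0.0115; -4.34 without blastocyst 2). Of 13 immediate early genes 10 were relatively higher in culture, among them Fosl1 at 555 ± 176 and 13.2 ± 6.46 FPKM (difference -4.39 ± 0.76 SE, adjusted p = 0.000465), again lost with that pseudocount (-3.28). Ribosomal protein genes were relatively higher in utero in 40 of 80 cases and in culture in 1, with a median of 0.79.

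**Figure D4:**
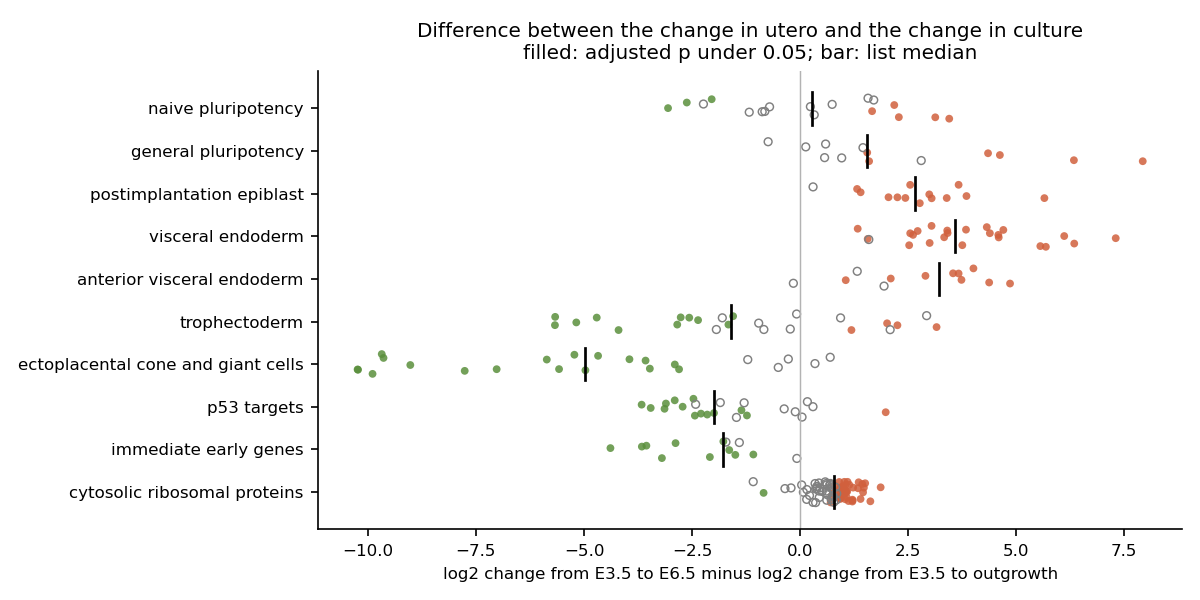
Log2 change from E3.5 to E6.5 in the Taf13 line minus log2 change from E3.5 to the outgrowth in the Taf12 line for the tested members of 10 gene lists; filled points have adjusted p under 0.05 and bars are list medians. Visceral endoderm genes lie to the right around 3.58 and giant cell genes to the left around -4.97.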

How the data were processed

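Each library was made from the RNA of a single embryo with a low-input kit and sequenced as paired ends, per the labels' protocols. The authors deposited FPKM values for 56557 genes; the submitters' processing notes name Trimmomatic 0.39, FastQC 0.11.9, STAR 2.7.6a, R 4.2.1, DESeq2 1.36.0 and the build GRCm39. How reads were assigned to genes, and whether by strand, is not given in the sources used here. Antisense, overlapping and near-identical genes therefore cannot be told apart. Each line and stage was normalized separately by the authors. Here the deposited FPKM values of the 8 WT libraries were rescaled together by median-of-ratios over the 9755 genes above 0 in all of them. The log2(FPKM + 1) values of genes at 1 FPKM or more in at least 4 libraries were tested with limma 3.58.1 (R 4.3.3, trend and robust moderation), with Benjamini-Hochberg adjustment over all tested genes.

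FPKM steps gave whole reads for 37342 of 37343 genes above 0, with 100% of 672979 values of up to 500 reads within 0.05 of a whole number. These recovered reads set the depth, the floor of 3 reads per library and the 95% counting intervals; without molecular identifiers both cover counting error only. HET embryos, and the WT embryos of the Taf12 line, were tested in fits of their own with interaction terms. Replicate numbers were not used as pairs, since the deviations of same-numbered WT libraries correlated at -0.041 to 0.0136. Named genes were the 12 largest increases and 12 largest decreases with non-overlapping stages and at least 5 FPKM, the defining members of each list, the 8 largest differences in each direction against culture, and genes at 0 in a stage; the genes that differed between WT and HET were named, with an exception not reported here, because they were few. Predicted genes, clones and pseudogenes, known by their names, were left out before the rankings by size of change. Members, lists and tests were chosen with earlier results of these data known. The fit was also run on simulated reads in which few genes changed. In these data 44.02% of tested genes were called, so that run cannot vouch for the counts given here. Mutant embryos and the authors' table of changed genes were not used here. Promoter sequences are those of RefSeq.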

Additional observations from a re-analysis of the deposited data

Results flagged for a closer look

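In 49 of 361 groups of 4 WT libraries of the genes named above, 1 library stood apart from the others of its stage, by a gap to its nearest neighbour divided by the range of the group, on the log2(FPKM + 1) scale, above Dixon's 95% critical value for 4 samples. Chance gives about 5% of groups without ties; that share does not apply to 22 of the 49 that had a ratio of 1, since 3 of their libraries shared a value, mostly 0. Of all 49, 25 were at E3.5 and 24 at E6.5, and E6.5 embryo 3 was the library apart in 17. E6.5 embryo 3 was apart as the highest for Ptprc (1), Dppa1 (1), Srgn (0.847), Lama1 (0.972), Thbd (0.9), Rhox5 (0.881), Tpbpa (0.834) and Aldh1a2 (0.966), with the ratio of gap to range in parentheses. It was apart as the lowest for Lhx1 (0.893), Lef1 (0.962), Spry4 (0.932), Dnmt3b (0.847), Eno1 (0.83), Pkm (0.866), Gapdh (0.832), Slc38a2 (0.885) and Ccnd1 (0.902). Among the other E6.5 embryos the library apart was embryo 1 for Tfap2c (0.836), embryo 2 for Klf5 (0.879), Aqp9 (1) and Lefty2 (0.861) and embryo 4 for Fgf4 (0.865), Aldh1a1 (1) and Slc6a14 (1). At E3.5 a ratio of 1, where 3 libraries had the same value and most often none at all, was found in blastocyst 1 for Wnt3, Ttr, Trf, Aldh1a2, Cdkn1c, mt-Nd3 and mt-Nd4l, blastocyst 2 for Pou3f1, Etv4, H19 and Xist, blastocyst 3 for Hoxa10, Slc13a4 and Sfrp5 and blastocyst 4 for Nr0b1, Mixl1 and mt-Co2. The others were blastocyst 1 for Klf5 (0.878), Zfp42 (0.891) and Spry4 (0.841), blastocyst 2 for Dppa1 (0.859), Mest (0.896) and Pkm (0.88), blastocyst 3 for mt-Cytb (0.886) and blastocyst 4 for Meg3 (0.861).

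The change from E3.5 to E6.5 differed between WT and HET embryos by the interaction term of the limma fit in 7 genes. The log2 differences, WT minus HET, are given for 2610318N02Rik (-1.73), 9230009I02Rik (-1.64), Gm49760 (3.78), Gramd3 (3.19), Rian (-4.06) and Tnfrsf22 (4.43). The change in the uterus and in culture differed by the same kind of term for these named genes. Relatively higher in the uterus were Afp (4.32), Rbp4 (6.34), Slc2a2 (4.6), Pou5f1 (6.34), Fgf5 (5.65), Fgf8 (8.27), Tdgf1 (7.93), Slc13a4 (9.37), Prl8a2 (8.63), Rab34 (8.44), Vat1l (7.94), Colec12 (7.86) and Tc2n (7.71). Relatively higher in culture were Prl3d1 (-9.89), Hand1 (-4.67), Prl5a1 (-10.28), Prl2a1 (-10.25), Prl4a1 (-9.96), Il23a (-10.50), Entpd1 (-9.75), Cdkn1a (-3.67) and Fosl1 (-4.39). The lines differ as well, so setting and line cannot be told apart.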

How the results depend on the processing

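The count of 5227 genes called between the stages lay between 3973 and 6352 under the alternatives other than upper-quartile scaling, which gave 8127, with 7163 higher and 964 lower. It was 4643 with the replicate number as a block, which moved 1 of the 190 named and tested genes (Gja1) across the threshold; the numbers share only a name. Leaving out each library in turn gave 4198 to 5105 calls, 2545 to 3107 higher and 1653 to 1998 lower. Of the 190 genes, 148 kept their direction and side of the threshold under every setting and 42 did not. The log2 change turned positive under upper-quartile scaling for Taf13 (0.928), Gja1 (0.455), Tdgf1 (0.978), Hhex (0.857), Smad2 (0.904), Taldo1 (0.205) and Ei24 (0.242) and, called in neither fit, for Lamb1 (0.612), Lamc1 (0.547), Acvr1b (0.291) and Axin2 (0.197), and for Ddx3y with Taf12 line blastocysts as the start (1.23); the cause was not tested. Under each other setting at most 7 genes, called in neither fit, changed sign. In HET, leaving out single libraries gave 6681 to 7170 calls and the block over numbers 1 to 4 gave 5578. The 7 genes that differed between WT and HET became 12 with a pseudocount of 0.1, of which 8 were positive; leaving out single libraries gave 6 to 38 calls, 3 to 23 positive and 3 to 15 negative, and leaving out WT embryo 3 and HET embryos 8 and 9 gave 5. Against culture the 3798 calls became 3449 with a pseudocount of 0.1, 3788 with libraries set to the same total and 3171 to 3971 with single libraries left out. Depth limits low genes: the blastocyst libraries held fewer reads, and a gene at 0 there may lie below the floor of 3 reads.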
